A study of Mus musculus with 4 samples.

Results

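Retrohippocampal excitatory neurons, chosen by 8 genes that include Rai14 and Cwh43, were examined among single nuclei of mouse hippocampus. A nucleus was taken as a member when at least 3 of 8 genes (Rai14, Sntb1, Cwh43, Myocd, Vwc2l, Pamr1, Col8a1 and Sulf1) and Slc17a7, the vesicular glutamate transporter of cortical and hippocampal excitatory neurons, had at least 1 UMI. A UMI (unique molecular identifier) stands for 1 counted transcript. Nuclei with more than 1 UMI of the subicular gene Fn1, with more than 1 UMI of Gad1 and Gad2 together, or with at least 2 of 4 dentate or 2 of 6 glial genes were left out. Of 55295 nuclei kept for their gene number and mitochondrial share, 568 were members. They were chosen from their own counts, so the levels of these genes are a description and carry no test.

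Compared were wild-type (WT) mice and Cyfip2+/R87C mice, which carry the R87C change in 1 copy of the gene in every cell and are called KI below for knock-in. The change is one found in children with severe early epilepsy. Both genotypes were littermates on the C57BL/6N background at an age of 28 postnatal weeks. There were 2 animals per genotype with a single library each, so the p-values below measure the spread between 2 libraries a group. In 1 of its labels the allele of KI replicate 2 was written R88C and in another R87C, and the library was kept in the KI group that its genotype label gave. The treatment protocol named the knock-in in all 4 libraries. All libraries carried the same batch label, so batches could not be compared.

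The retrohippocampal region comprises the subiculum and the neighbouring presubicular, parasubicular and entorhinal cortex, which receive the output of CA1 and pass it on to cortical and subcortical targets. Its excitatory neurons use glutamate and differ from CA1 pyramidal neurons in their layers and in the adhesion, channel and receptor genes they express. Cyfip2 encodes a subunit of the WAVE regulatory complex, which turns signals from Rac into branched actin through the Arp2/3 complex.

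WT replicates 1 and 2 gave 85 and 189 members, and KI replicates 1 and 2 gave 108 and 186. These were 0.532% (95% exact binomial interval 0.425 to 0.657), 1.44% (1.24 to 1.65), 0.860% (0.706 to 1.04) and 1.37% (1.18 to 1.58) of the kept nuclei. The lowest and the highest share were both WT, and the genotypes overlapped. The WT libraries had a mean share of 0.984% ± 0.639 (SD, n = 2) and those of KI had 1.11% ± 0.359 (SD, n = 2; exact two-sided permutation test, p = 1, where 2 libraries against 2 can give no p below 0.33). The log2 ratio of KI to WT was 0.18 and turned to -0.37 without WT replicate 1 and to -0.19 without KI replicate 2. With every nucleus thinned to 2000 UMIs and shallower ones left out, 20 of 12827, 33 of 11192, 16 of 9955 and 28 of 11882 nuclei met the rule in the same library order, and the log2 ratio was -0.19. The intervals cover counting error only. How much of the region entered each dissection is not known from the counts, and its part in the shares was not tested.

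**Figure D1:**
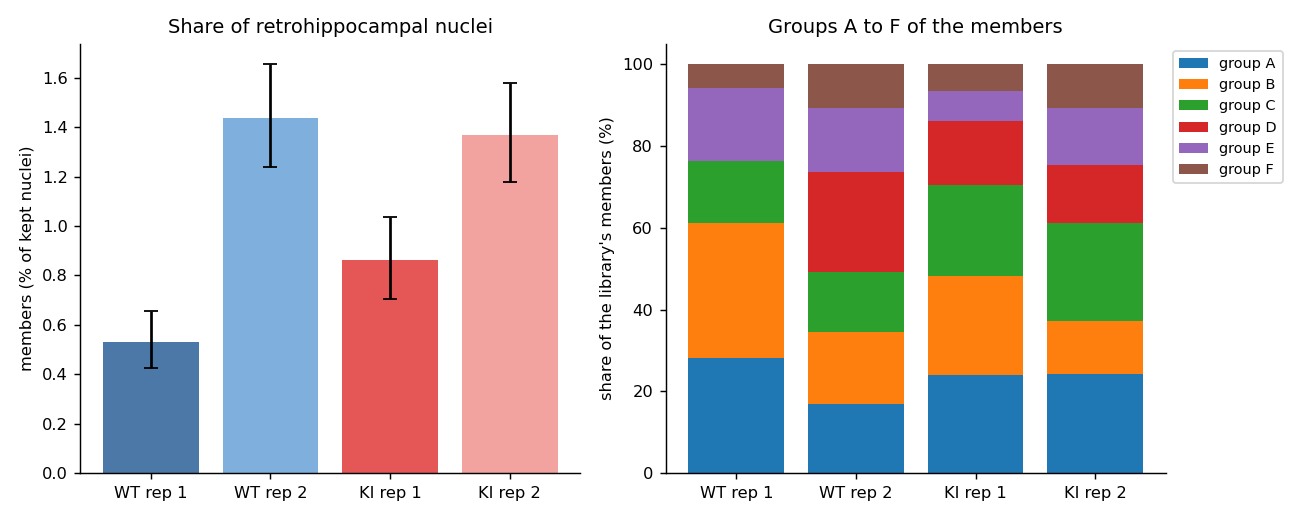
Left, members as a percentage of kept nuclei in each library, with exact 95% binomial intervals as error bars; right, the percentage of each library's members in groups A to F. The shares of the genotypes overlap, and group D holds 0 of the 85 members of WT replicate 1.

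The members held 575431 and 1487241 summed UMIs in WT and 886629 and 1468033 in KI, with a median of 6193, 6857, 7212 and 6780 UMIs per nucleus. WT replicate 1 was thus the shallowest library for these neurons. Malat1 took 87093 to 88946 CPM (UMIs of a gene per 1000000 UMIs of the summed nuclei) over all kept nuclei of the WT libraries and 121276 to 137006 CPM in the KI libraries. Pairs of libraries shared 40 to 67 barcodes. A simulation of doublets (Scrublet) scored 0, 8, 4 and 9 members above 0.25 in the order WT replicates 1 and 2 and KI replicates 1 and 2, and these were kept unless stated.

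Rai14, which encodes an actin-binding ankyrin repeat protein, was detected in 75.3% and 82.0% of WT members and in 64.8% and 69.4% of KI members. Cwh43, which acts in the lipid remodelling of GPI anchors, was detected in 28.2%, 41.8%, 41.7% and 40.9%, and 146 members (25.7%) held both genes. Vwc2l, a secreted von Willebrand factor C domain protein, was found in 66.1% to 80.0% of members, and Sntb1, a syntrophin of the dystrophin complex, in 46.2% to 74.1%. Sulf1, a heparan sulfate endosulfatase, was found in 52.7% to 61.1%. The cardiac and smooth muscle coactivator Myocd, Pamr1 and the collagen gene Col8a1 were rarer, in 21.7% to 25.9%, 22% to 31.2% and 7.06% to 24.2% of members. In CA1 nuclei, chosen for CA1 genes and for fewer than 3 of these 8, the same genes were detected in 0.436% (Col8a1) to 7.37% (Sulf1). Just inside the threshold, 315 members had exactly 3 of the 8 genes, and their pooled counts held 987 CPM of Tshz2 and 2287 CPM of Hs3st4. Just outside it, 727 nuclei had exactly 2, with 567 CPM of Tshz2 and 1228 CPM of Hs3st4 and about the same median depth (6988 against 6444 UMIs). Members with 4 or more had 1816 and 2701 CPM of these genes.

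**Figure D2:**
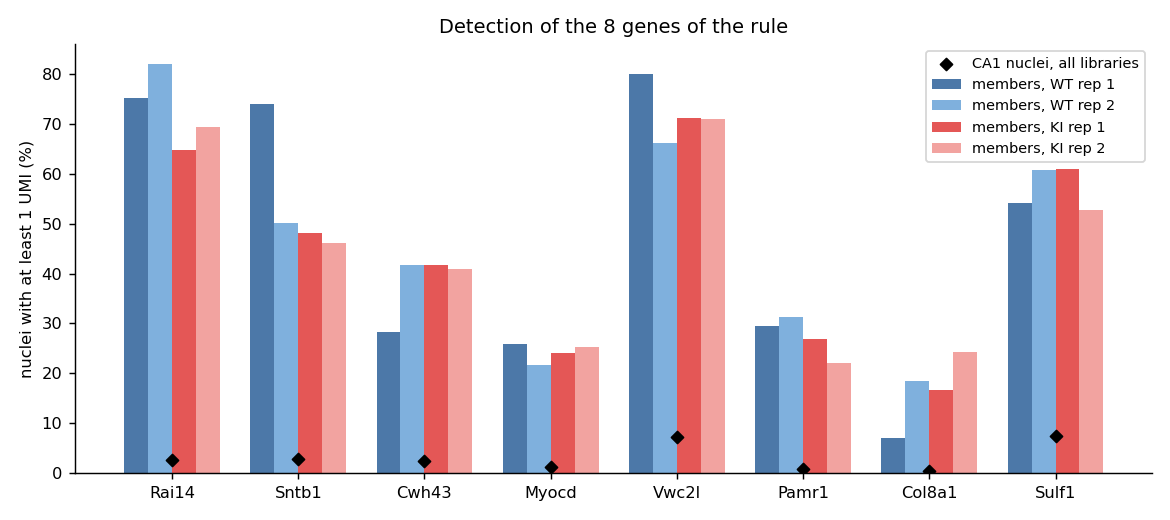
Percentage of members with at least 1 UMI of each gene of the rule, by library (bars), with the percentage of CA1 nuclei over all libraries (diamonds). Rai14 lies at 64.8% to 82.0% and Vwc2l at 66.1% to 80.0% of members, and every bar lies above the CA1 diamond of its gene. The lowest bar is that of Col8a1 in WT replicate 1, at 7.06%.

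The label was checked on genes outside the rule. Hs3st4, a heparan sulfate sulfotransferase of deep layers, stood at 2211 to 2779 CPM over the 4 libraries, and the deep-layer regulators Tle4 and Foxp2 at 467 to 563 CPM and 98.8 to 184 CPM. The other 6 of the 9 layer 6 genes were lower, with Rxfp1 at 33.0 to 70.6 CPM and Syt6, Nxph4, Moxd1, Cplx3 and Ccn2 at or below 17.5 CPM. Tshz2, which marks subicular and layer 5 neurons, stood at 1168 to 2136 CPM, and the adhesion gene Cntn6 at 329 to 534 CPM. Among other layer 5 genes, Il1rapl2 stood at 661 to 969 CPM, Bcl11b at 165 to 325 CPM and Etv1 at 132 to 203 CPM. Nxph1, Parm1, Deptor and Fezf2 stood at 26.6 to 146 CPM, and Sla2 at 0 to 5.4 CPM. Of the 7 CA1 genes, Fibcd1, Wfs1 and Pou3f1 stayed at or below 12.2 CPM and Gm2164 stood at 20.9 to 38.1 CPM, while Man1a (84.0 to 119 CPM), Mpped1 (86.8 to 157 CPM) and Ror1 (112 to 315 CPM) were higher. The dentate genes that the rule did not use were Plk5, at or below 5.4 CPM, and Stxbp6, at 12.4 to 48.7 CPM. Of the interneuron genes, Slc32a1, Pvalb, Vip, Lamp5 and Lhx6 stayed at or below 8.9 CPM, Sst stood at 12.9 to 24.9 CPM and Adarb2 at 63.9 to 307 CPM. The astrocyte genes Aqp4, Gfap and Aldh1l1 stayed at or below 7.0 CPM and Slc1a2 stood at 405 to 754 CPM. Gad1, Gad2, Prox1, Gja1 and Mog were held low by the rule itself. Of the 10 presubicular and entorhinal genes, Scnn1a, Cbln1 and Cbln4 were at or below 3.5 CPM, Tox3, Lef1 and Reln at 1.3 to 77.0 CPM, and Nr4a2, Trps1, Nnat and Etv1 at 35.4 to 203 CPM. Of the other subicular genes, Nts, Gpr101 and Dlk1 were at or below 3.4 CPM, and Ntng2 and Slc17a6 stood at 7.0 to 20.4 CPM. In the CA2 and CA3 list, Cpne4 stood at 321 to 576, Elavl2 at 113 to 190 and Nrip3 at 46.4 to 67.7 CPM. Amigo2, Rgs14, Map3k15, Bok and Iyd of that list stayed at or below 8.7 CPM. The upper layer gene Rorb stood at 92.6 to 167 CPM, Pdzrn3 at 69.3 to 109 CPM, and Cux1 and Rasgrf2 at 36.1 to 73.0 CPM. Cux2 and Calb1 stood at 0 to 26.1 CPM, and Otof, Lamp5 and Stard8 at 0 to 6.13 CPM. Position in the tissue cannot be read from dissociated nuclei.

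The rule joined several kinds of neuron. When genes with an unadjusted p below 0.05 for genotype were left out, Leiden clustering gave 6 groups of members, here called A to F by size, which are given as a description. Group A (127 nuclei) had the most Cntn6 (1899 CPM), Il1rapl2 (2523 CPM), Vwc2l (1668 CPM), Sntb1 (443 CPM) and Cwh43 (158 CPM). Group B (111 nuclei) had the most Tshz2 (3553 CPM) and Etv1 (331 CPM), and Rorb was low there (7.9 CPM against 349 CPM in group A). Group C (110 nuclei) had a median of 11238 UMIs, the most CA1-type Gm2164 (93.1 CPM) and 19 of the 21 members with a high doublet score. Group D (89 nuclei) had Brinp3 (1653 CPM) and Meis2 (501 CPM), group E (79 nuclei) Adamtsl1 (1198 CPM) and Foxp2 (430 CPM), and group F (52 nuclei) Cdh13 (1173 CPM), Moxd1 (107 CPM) and the most Rai14 (441 CPM) and Col8a1 (208 CPM). Vwc2l was thus highest in groups A and B, where Col8a1 stood at 1.3 CPM. Rai14 was present in all 6 groups, from 83.3 to 441 CPM.

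The groups were not spread alike over the libraries. In the order WT replicates 1 and 2 and KI replicates 1 and 2, group A held 24, 32, 26 and 45 nuclei, group B 28, 33, 26 and 24, group C 13, 28, 24 and 45, group D 0, 46, 17 and 26, group E 15, 30, 8 and 26, and group F 5, 20, 7 and 20. With all genes used, the clustering instead set apart a cluster of 31 and 38 WT nuclei with 1 nucleus of each KI library, and another of 26 and 22 KI nuclei with 0 WT nuclei. Nearly all of both went into group B once the genotype genes were left out (62 of 71 and 46 of 48). That clustering also gave a cluster of 7 nuclei, 5 of KI replicate 1 and 2 of KI replicate 2, which held 6.50% and 2.33% of the members' UMIs in these libraries. A further cluster from all genes had 49 nuclei, 0, 48, 0 and 1 in the library order given above, and 46 of these went into group D.

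Between the genotypes, Sorcs1 and Malat1 rose and Tmem163, Homer1, Sema5b, Etv5 and Alk fell in the members. Counts were summed over the members of each library and tested by the quasi-likelihood method of edgeR, and p-values were adjusted after Benjamini and Hochberg over 10373 genes outside the rule. At an adjusted p below 0.05, 53 genes changed (0.511% of those tested), 34 of them higher (0.328%) and 19 lower (0.183%) in KI. An unadjusted p below 0.05 was reached by 1197 genes (11.5% of all, 5.79% on the high and 5.75% on the low side). Among all genes tested, both KI libraries lay above both WT libraries in 18.2% and below both in 25.6%. DESeq2 called 27 of them, and none passed in edgeR among members with a UMI of Cwh43 (0 of 6589 genes, 502 at an unadjusted p below 0.05). Without the 21 members of high doublet score 5 of the 53 passed, and the other genes kept their direction where they could be tested. Most log2 fold changes moved little, such as those of Etv5 from -1.42 to -1.38, Hpse2 from -3.88 to -3.77 and Homer1 from -1.15 to -1.19, and the widest moves were those of Blnk from 3.73 to 4.26 and Ptgds from 1.93 to 1.51. Without WT replicate 1, WT replicate 2, KI replicate 1 or KI replicate 2 the count was 139, 190, 160 or 366, with 48, 40, 51 and 46 of the 53 among them. The 5 that passed without high doublet scores were Sorcs1, Malat1, Kctd16, Gm20754 and Tmem163, with adjusted p of 0.011, 0.030, 0.030, 0.039 and 0.021 in that fit.

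Sorcs1, a sorting receptor of the VPS10 family in neurons, lies at chr19:50143299-50678646 (GRCm38, minus strand). It stood at 81.7 and 59.2 CPM in the WT libraries and at 330 and 265 CPM in the KI libraries, so that both KI libraries lay far above both WT libraries. The log2 fold change was 2.18 ± 0.22 (SE; adjusted p = 0.000445). Both KI libraries were above both WT libraries in each of the 5 groups that had nuclei of all libraries. In group B Sorcs1 was at 150 and 102 CPM in WT and at 662 and 702 CPM in KI. In group D it was at 8.7 CPM in WT replicate 2 and at 205 and 193 CPM in KI. Group D held 46 of the 49 nuclei of the all-gene cluster that was nearly all WT replicate 2. The part of the kind of neuron in the contrast of group D was not tested. Sorcs3, a relative of Sorcs1, stood at 123, 173, 291 and 394 CPM (WT replicates 1 and 2, then KI replicates 1 and 2; log2 fold change 1.24 ± 0.21, SE, adjusted p = 0.011).

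Malat1, an abundant long noncoding RNA of the nucleus, was at 57480 and 56430 CPM in WT and at 99345 and 89181 CPM in KI (log2 fold change 0.79 ± 0.11, SE, adjusted p = 0.0029). It was higher in both KI libraries in all 5 comparable groups. Kctd16, an auxiliary subunit of GABA-B receptors, stood at 203, 251, 524 and 572 CPM in the same order (1.32 ± 0.18, adjusted p = 0.0029), and both KI libraries lay above both WT libraries in groups B, C and F. The noncoding Gm20754 stood at 134, 151, 344 and 371 CPM (1.38 ± 0.18, adjusted p = 0.0029). In groups A and B alone its log2 fold change was -0.0019, so the higher values came from the other groups, such as group C with 401 and 409 CPM in WT against 846 and 772 CPM in KI.

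Tmem163, a zinc-binding membrane protein of synaptic vesicles, lies at chr1:127486546-127679548 (GRCm38, minus strand). It stood at 141 and 139 CPM in the WT libraries against 33.8 and 42.9 CPM in those of KI (log2 fold change -1.78 ± 0.22, SE, adjusted p = 0.0018). In group B it stood at 236 and 160 CPM in WT and at 0 in both KI libraries, and in group F at 757 and 542 CPM in WT and at 103 and 265 CPM in KI. Hpse2, which encodes a heparanase-like protein, was at 50.4, 24.2, 1.1 and 2.7 CPM (65 UMIs in WT against 5 in KI, adjusted p = 0.0077). Nearly all of it lay in WT nuclei of group B (145 and 147 CPM), against 0 in KI nuclei of that group.

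**Figure D3:**
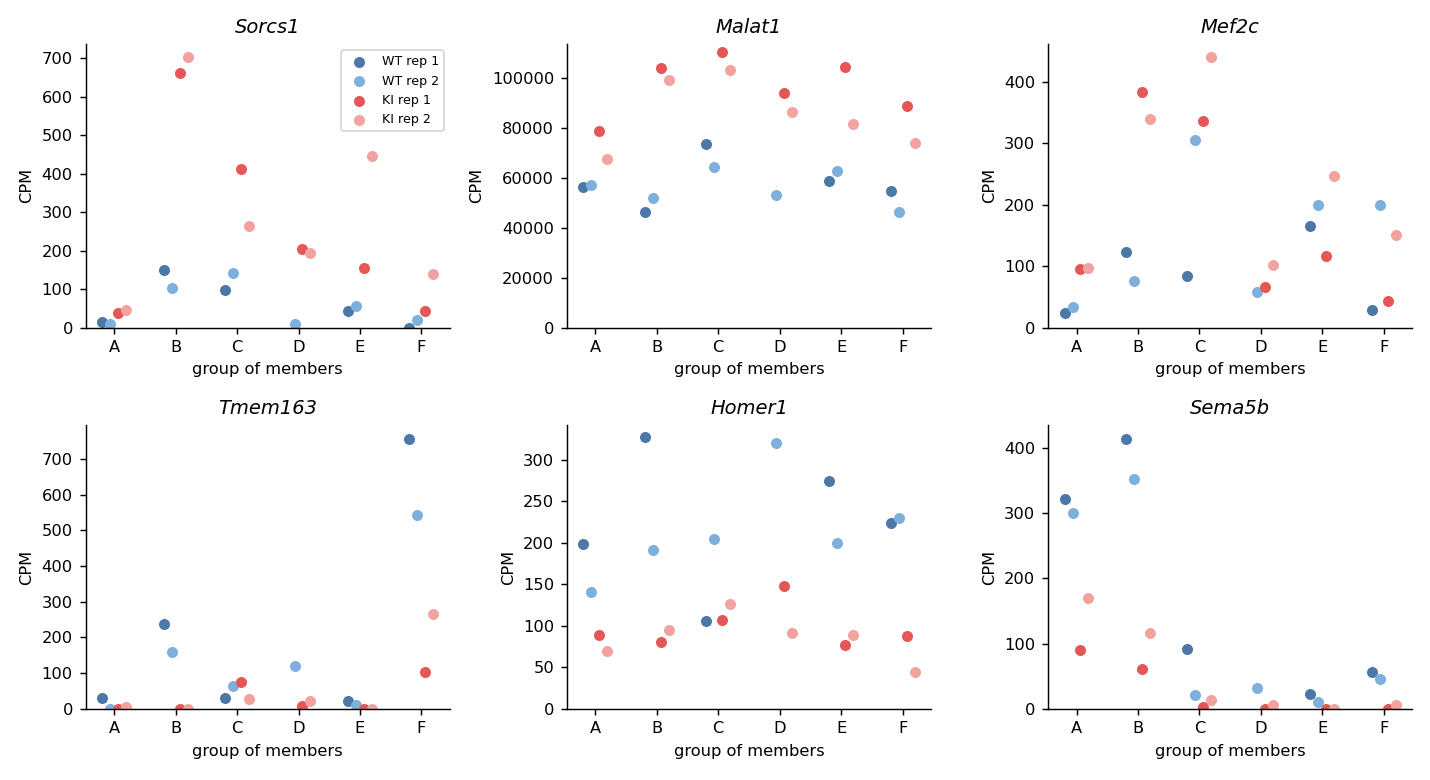
CPM of 6 genes within groups A to F of the members, 1 point per library; group D has no nuclei of WT replicate 1. Sorcs1 and Malat1 lie higher in KI in each group with all libraries, whereas Tmem163 in WT is highest in groups B and F and Sema5b in groups A and B.

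Homer1, a scaffold of the postsynaptic density whose short form is induced by activity, lies at chr13:93299635-93405129 (GRCm38, plus strand). It stood at 233 and 223 CPM in WT and at 100 and 96.0 CPM in KI, with no overlap (log2 fold change -1.15 ± 0.19, SE, adjusted p = 0.0098). Sema5b, a transmembrane semaphorin of axon guidance, fell from 235 and 116 CPM to 30.5 and 48.4 CPM (-1.99 ± 0.31, adjusted p = 0.0086). In group A it was at 322 and 300 CPM in WT and at 89.5 and 170 CPM in KI, and in group B at 414 and 352 CPM against 60.7 and 116 CPM. The receptor tyrosine kinase Alk fell from 177 and 120 CPM to 44.0 and 57.2 CPM (-1.44 ± 0.24, adjusted p = 0.011). In group B Alk was at 403 and 512 CPM in WT against 10.1 and 13.6 CPM (2 UMIs each) in KI, and the genotypes overlapped in group A (153, 253, 160 and 197 CPM) and group C. Etv5, an ETS transcription factor, fell from 130 and 116 CPM to 44.0 and 43.6 CPM (-1.42 ± 0.22, adjusted p = 0.0077). The other genes named for the size of their decrease were Gm39436, Nckap5, Gm43948, the growth factor Fgf1, Rgs20, Hivep1 and Adamtsl1, with log2 fold changes from -3.41 to -1.20 and adjusted p from 0.0088 to 0.044. Gm47875 had 21 UMIs in WT and 0 in KI, which is at least 7.99-fold lower when 3 counts are allowed for the KI libraries together.

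**Figure D4:**
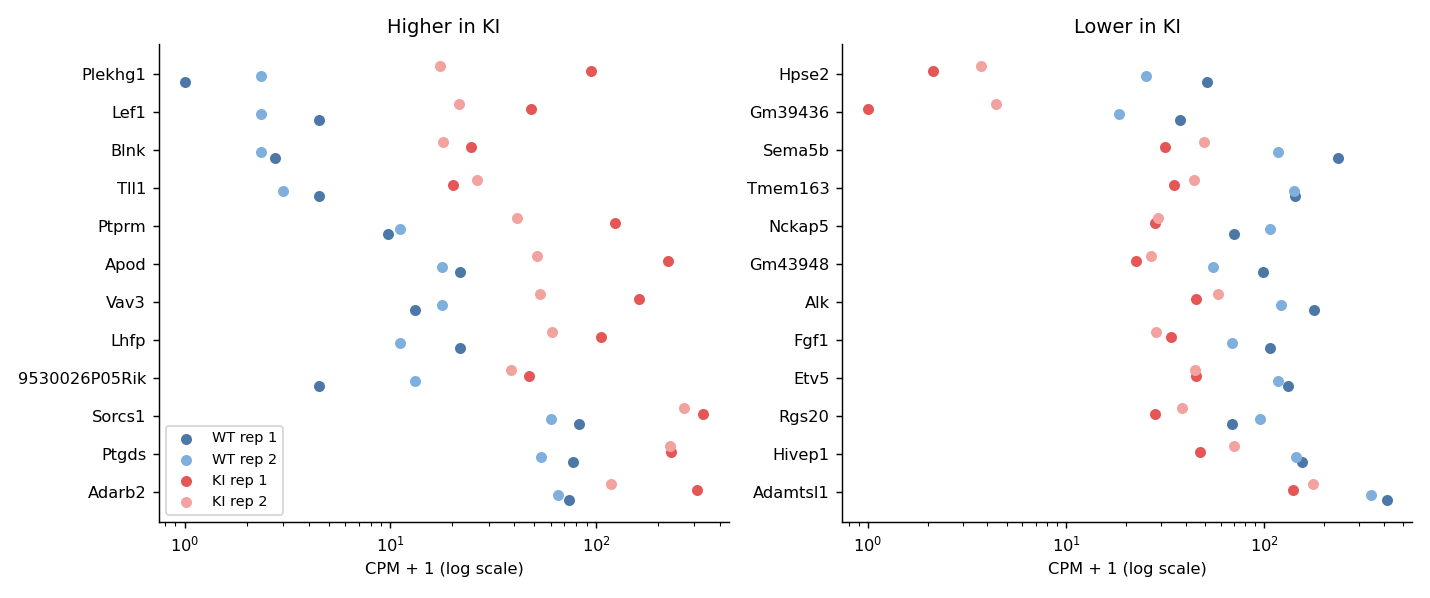
CPM + 1 on a log axis of the 12 genes per direction with the largest change, 1 point per library. Genes were shown only where the genotypes do not overlap. The KI replicate 1 point lies furthest above that of KI replicate 2 for Plekhg1 (93.6 and 16.3 CPM) and Apod (222 and 50.4 CPM).

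A good part of the largest increases sat in the cluster of 7 KI nuclei. These nuclei held 94 of the 107 KI UMIs of Plekhg1, 56 of 72 of Lef1, 126 of 168 of Ptprm, 143 of 219 of Vav3, 102 of 181 of Lhfp, 341 of 443 of Adarb2 and 34 of 36 of Prkcd. Plekhg1 had 2 UMIs in the WT libraries, and the ratio of KI to WT was 46.9 (95% counting interval 12.7 to 392). Without the 7 nuclei Adarb2, an interneuron gene of the lists used here, had a log2 fold change of -0.52 (adjusted p = 0.42), Ptprm of 0.94 (adjusted p = 0.49) and Vav3 of 1.21 (adjusted p = 0.16). The potassium channel gene Kcnc2, at 125, 71.9, 335 and 222 CPM with all members, went from a log2 fold change of 1.62 to 0.73 (adjusted p = 0.27), and the adhesion gene Ntng1 from 1.38 to 0.63 (adjusted p = 0.20). In all, 34 of the 53 genes passed without these nuclei. The 9 interneuron genes summed to 129 and 120 CPM in WT and to 365 and 162 CPM in KI, mostly as Adarb2, while Lhx6, Pvalb and Vip stood at no more than 8.9 CPM in any library. Gad1 and Gad2 were capped by the rule. Their part in these increases was not tested.

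Tll1, 9530026P05Rik and Blnk were not of this kind, with 0 of 54, 1 of 96 and 2 of 46 KI UMIs in the 7 nuclei. Tll1, a metalloprotease of the tolloid family, was at 3.5 and 2.0 CPM in WT and at 19.2 and 25.2 CPM in KI (log2 fold change 3.21 ± 0.54, SE, adjusted p = 0.011). Mef2c, a transcription factor of activity-dependent programmes, stood at 92.1, 147, 232 and 277 CPM (1.11 ± 0.22, adjusted p = 0.030). In group B it was at 124 and 75.8 CPM in WT and at 384 and 341 CPM in KI, while the genotypes overlapped in groups E and F. Inpp4b, a phosphoinositide phosphatase, stood at 137, 261, 499 and 435 CPM (1.25 ± 0.23, adjusted p = 0.024), and in group B at 26.9, 26.7, 303 and 136 CPM.

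Apod and Ptgds, which encode secreted lipid carriers made mainly by glia and meninges, were also higher. Apod stood at 20.9, 16.8, 222 and 50.4 CPM (2.91 ± 0.55, adjusted p = 0.025) and Ptgds at 76.5, 53.1, 230 and 227 CPM (1.93 ± 0.22, adjusted p = 0.00086). Apod amounted to 0.141, 0.132, 1.82 and 0.398 UMIs per member and to 0.247, 0.143, 1.59 and 0.363 UMIs per CA1 nucleus. Ptgds amounted to 0.518, 0.418, 1.89 and 1.79 UMIs per member and to 0.491, 0.394, 1.59 and 0.893 UMIs per CA1 nucleus. In group F of KI replicate 2 (20 nuclei) Ptgds reached 1137 CPM, against 87.5 to 144 CPM in groups A to E of that library. Apod was highest in KI replicate 1 in both populations. Ptgds was about equal per member in the KI libraries but lower per CA1 nucleus in KI replicate 2 than in KI replicate 1. The part of free RNA in these increases was not tested.

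Cyfip2 itself, at chr11:46193850-46312859, stood at 153 and 173 CPM in WT and at 187 and 175 CPM in KI. Its log2 fold change was 0.20 ± 0.19 (SE; adjusted p = 0.74), and the count does not tell the 2 alleles apart. Of the 19 genes of the WAVE and Arp2/3 complexes 0 passed, with 2 lower at an unadjusted p below 0.05, against 5.75% of all genes (Brk1, 66.0, 65.2, 35.0 and 43.6 CPM, and Arpc4), and their median log2 fold change was -0.04 beside -0.0015 over all genes tested.

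Among genes of neuronal activity, Egr1, an immediate early transcription factor, fell from 13.9 and 12.8 CPM to 0 and 1.4 CPM, with 27 UMIs in WT and 2 in KI (ratio of WT to KI 15.4, 95% counting interval 3.87 to 134, adjusted p = 0.039). It was the only 1 of 9 tested immediate early genes past the threshold, 3 others were lower at an unadjusted p below 0.05 (5.75% of all genes), and the median log2 fold change was -0.57. Nr4a1 stood at 50.4, 47.7, 27.1 and 15.7 CPM (adjusted p = 0.12). The summed level of the list was 271 and 301 CPM in WT against 179 and 148 CPM in KI. Of 11 activity effectors, Sorcs3 rose and Homer1 fell (0.511% of all genes were called), 4 were lower at an unadjusted p below 0.05, Homer1 among them, and the median was -0.37. Of 9 chaperones 0 passed and 4 were lower at an unadjusted p below 0.05, against 5.75% of all genes (Hspa5 at 66.0, 69.3, 36.1 and 34.7 CPM and Hsph1 at 53.9, 52.4, 32.7 and 24.5 CPM among them), with a median of -0.56.

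Upstream sequence is printed for 3 of these genes, Homer1 for the 3 copies of a cAMP response half-site it holds, Malat1 as the most abundant and Sorcs1 as the most significant increase. The 250 bases before a RefSeq start are given 5′ to 3′ on the gene's strand (GRCm38.p6), at chr13:93303507-93303756 (plus strand), chr19:5802673-5802922 (minus strand) and chr19:50678647-50678896 (minus strand). The table has 2 starts for Homer1, both inside the gene interval given above, and the stretch printed is that before the first of them. Capitals mark TGACG on either strand.
Homer1: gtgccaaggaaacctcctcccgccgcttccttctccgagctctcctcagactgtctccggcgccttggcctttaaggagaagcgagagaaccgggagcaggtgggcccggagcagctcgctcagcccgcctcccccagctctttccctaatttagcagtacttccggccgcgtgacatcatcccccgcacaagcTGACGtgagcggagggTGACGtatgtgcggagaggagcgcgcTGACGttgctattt
Malat1: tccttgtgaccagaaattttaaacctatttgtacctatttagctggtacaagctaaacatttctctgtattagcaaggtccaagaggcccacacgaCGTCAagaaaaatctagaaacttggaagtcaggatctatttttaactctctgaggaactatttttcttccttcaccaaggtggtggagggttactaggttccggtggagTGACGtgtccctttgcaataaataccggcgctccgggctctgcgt
Sorcs1: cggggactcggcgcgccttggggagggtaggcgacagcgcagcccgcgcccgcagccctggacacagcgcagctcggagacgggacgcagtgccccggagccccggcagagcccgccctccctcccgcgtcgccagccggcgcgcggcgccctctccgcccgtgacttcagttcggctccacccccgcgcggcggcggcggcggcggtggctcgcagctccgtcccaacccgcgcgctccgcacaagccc
TGACG was found 3 times before Homer1, 2 times before Malat1 and 0 times before Sorcs1. The 250 bases before Tmem163 were also searched, held 0 matches of TGACG and are not printed. It was held by 17.8% of 27025 promoters and by 7 of the 44 called genes with a promoter in the table. The full element TGACGTCA, which contains it, was held by 1.60% of promoters and by 0 of the 44, and the EGR motif GCGTGGGCG by 0.540% and by 1 of the 44 (Hivep1). These are matches of letters and not sites of binding.

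Counts of called genes in the lists below stand beside 0.511% called over all genes tested. Grik3, a kainate receptor subunit, fell from 355 and 390 CPM to 201 and 185 CPM (log2 fold change -0.89 ± 0.18, SE, adjusted p = 0.031), 1 of 22 glutamate receptor genes, of which 6 were lower (5.75% of all genes) and 3 higher (5.79%) at an unadjusted p below 0.05. Grm3 stood at 660, 474, 326 and 339 CPM (adjusted p = 0.12). Of 12 GABA receptor genes 0 passed, with Gabrg3 at 1818, 917, 775 and 819 CPM (adjusted p = 0.22). Of 29 potassium channel genes Kcnc2 was called, at a log2 fold change of 1.62. Without the cluster of 7 nuclei the log2 fold change of Kcnc2 was 0.73 and did not pass. Kcnip4 stood at 5262, 4377, 6986 and 6118 CPM (adjusted p = 0.14). Of 20 sodium, calcium and HCN channel genes 0 passed, with Cacna1a at 723, 682, 517 and 512 CPM (adjusted p = 0.34) and Cacna1h at 27.8, 18.8, 11.3 and 10.2 CPM. Medians of these 4 lists lay between -0.12 and 0.17.

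At the synapse, Homer1 was the 1 of 19 scaffold genes that passed, with 6 lower at an unadjusted p below 0.05 (5.75% of all genes) and a median of -0.30, and Dlgap4 stood at 179, 149, 109 and 99.5 CPM (adjusted p = 0.24). Of 25 release genes 0 passed, with Unc13a at 116, 94.8, 59.8 and 51.8 CPM (adjusted p = 0.12) and Syn3 at 103, 102, 125 and 178 CPM (adjusted p = 0.22). Of 36 guidance and adhesion genes Sema5b fell, and Ntng1 was called at 1.38, which was 0.63 (adjusted p = 0.20) without the 7 nuclei. Of 12 neuropeptide genes 0 passed, with Npy at 10.4, 6.7, 21.4 and 17.7 CPM and Pcsk1 at 45.2, 42.4, 30.5 and 21.8 CPM. Of 19 oxidative phosphorylation genes 0 passed, with Atp5a1 at 76.5, 96.8, 167 and 121 CPM (adjusted p = 0.18) and Cox5a at 34.8, 35.6, 46.2 and 51.1 CPM. Of 20 splicing factors 0 passed, with Ptbp2 at 101, 132, 229 and 150 CPM and Srsf3 at 50.4, 61.2, 36.1 and 34.1 CPM. Apod and Ptgds were the 2 of 19 lipid genes, and Malat1 the 1 of 8 nuclear noncoding RNAs, that passed, where 0.511% of all genes did. At an unadjusted p below 0.05, 3 lipid genes were higher (5.79% of all genes) and 6 lower (5.75%), with a median of -0.09 over the list. Neat1 stood at 15.6, 12.8, 29.3 and 37.5 CPM (adjusted p = 0.11).

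Of the 8 layer 5 genes tested 0 passed, all 8 had a negative log2 fold change (50.1% of all genes tested) and 4 were lower at an unadjusted p below 0.05 (5.75% of all genes), with a median of -0.42, with Parm1 at 136, 115, 40.6 and 78.3 CPM (adjusted p = 0.13) and Bcl11b at 325, 215, 165 and 170 CPM (adjusted p = 0.25). Foxp2 (170, 184, 115 and 98.8 CPM, adjusted p = 0.15) and Hs3st4 led the 7 layer 6 genes, of which 0 passed. Tshz2 and Cntn6 led the 4 subicular genes (adjusted p = 0.29 and 0.60), of which 0 passed. Lef1, with most of its UMIs in the 7 nuclei, was the 1 of 7 entorhinal and presubicular genes called, and Reln stood at 8.7, 35.0, 41.7 and 77.0 CPM (adjusted p = 0.18). Of 7 general excitatory genes 0 passed (Nrn1 at 90.4, 80.0, 54.1 and 55.2 CPM and Tbr1 at 12.2, 19.5, 41.7 and 22.5 CPM). Of 6 upper layer genes 0 passed, with Cux2 at 0, 8.1, 24.8 and 20.4 CPM (adjusted p = 0.13), of which 30.8% of the KI UMIs lay in the 7 nuclei, and Calb1 at 26.1, 19.5, 15.8 and 10.9 CPM.

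Genes of other hippocampal cells were few after the low-count filter. Of 6 CA1 genes 0 passed (Ror1 at 315, 181, 148 and 112 CPM and Mpped1 at 103, 157, 86.8 and 89.2 CPM), nor did any of 3 CA2 and CA3 genes (Elavl2 and Cpne4), 1 dentate gene (Stxbp6) or 1 mossy cell gene (Ociad2). Adarb2 was the called 1 of 2 interneuron genes, and Sst stood at 12.9 to 24.9 CPM. Slc1a2, the glial glutamate transporter, fell from 754 and 715 CPM to 418 and 405 CPM (-0.77 ± 0.16, adjusted p = 0.042) and was the 1 astrocyte gene tested, while the other 5 of that list, 2 of them used by the rule, were at or below 7.0 CPM in every library (Gfap and Aldh1l1 at 0 in WT replicate 1). The list summed to 763 and 734 CPM in WT and to 432 and 416 CPM in KI. Of 4 oligodendrocyte genes (St18 and Mbp lowest in p), 3 microglial genes (Cx3cr1 lowest), 2 precursor genes (Vcan and Tnr) and 1 vascular gene (Dcn) 0 passed.

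The same contrast was set beside that of 3 other excitatory populations of the same mice: nuclei with 2 or more UMIs of Fn1 (57, 114, 44 and 97 nuclei), CA1 nuclei (1522, 1438, 1050 and 1270) and deep layer nuclei with Foxp2 genes (75, 180, 157 and 226). Sorcs1 was at 254, 239, 537 and 470 CPM in Fn1 nuclei (log2 fold change 1.10 ± 0.19, SE, adjusted p = 0.32), at 122, 111, 272 and 244 CPM in CA1 (1.24 ± 0.12, adjusted p = 0.0056) and at 35.9, 43.1, 217 and 297 CPM in deep layer nuclei (2.76 ± 0.25, adjusted p = 0.013). KI changed 732 of 15957 genes in CA1 (4.59%; 2.94% higher and 1.65% lower), 0 of 7928 in Fn1 nuclei (572 at an unadjusted p below 0.05; DESeq2 was not run there) and 1 of 10723 in deep layer nuclei (0.00933%), which was Sorcs1. Homer1 was at 340, 298, 140 and 134 CPM in CA1 (-1.13 ± 0.12, adjusted p = 0.0058), and its change in the members differed from that in CA1 by -0.06 ± 0.19. Malat1 had a log2 fold change of 0.64 to 0.70 in the 3 populations and passed in CA1 (adjusted p = 0.023).

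The effect of KI itself was tested for a difference between populations. Against CA1, 100 of 15953 genes differed (0.627%), 45 with a higher (0.282%) and 55 with a lower (0.345%) log2 change in the members, and DESeq2 called 25. The rise of Sorcs1 was larger in the members by 0.91 ± 0.20 (SE; adjusted p = 0.010) and that of Kctd16 by 1.08 ± 0.19 (adjusted p = 0.00031), and the change of Alk was lower by 1.56 ± 0.24 (adjusted p = 3.0e-05; CA1 0.10 ± 0.18). Sdk1, a synaptic adhesion gene, stood at 302, 193, 132 and 168 CPM in the members and at 60.2, 67.7, 296 and 303 CPM in CA1. The difference was -2.94 ± 0.21 (adjusted p = 8.5e-15). Pappa2 stood at 29.6 to 43.6 CPM in all libraries of the members and at 4.4, 6.5, 51.6 and 45.7 CPM in CA1 (-2.83 ± 0.32, adjusted p = 7.9e-08). Against Fn1 nuclei 5 of 10075 genes differed (0.0496%), 4 higher (0.0397%) and 1 lower (0.00993%). DESeq2 called 0 (44 at an unadjusted p below 0.05), and edgeR called 0 without the 7 nuclei. Without WT replicate 1, WT replicate 2, KI replicate 1 or KI replicate 2 the count was 42, 48, 0 or 1. One of the 5, the serotonin receptor gene Htr1f, stood at 400, 414, 180 and 250 CPM in the members and at 188, 199, 306 and 338 CPM in Fn1 nuclei (difference -1.65 ± 0.24, adjusted p = 0.020; -1.63 and 0.079 without the 7 nuclei). Against deep layer nuclei 0 of 11523 genes passed with edgeR and 0 with DESeq2, with 425 and 40 at an unadjusted p below 0.05, and leaving out WT replicate 1, WT replicate 2, KI replicate 1 or KI replicate 2 gave 1, 28, 20 or 8.

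Levels in the members were also set beside these populations. All 4 populations were chosen by gene detection, so genes that go with those of the rules had to differ, and the values are a description. By edgeR with the library as a block, 617 genes were higher (6.12%) and 690 lower (6.85%) than in Fn1 nuclei (13% of 10075 in all). Against CA1, 1574 were higher (9.87%) and 1807 lower (11.3%), 21.2% of 15953, and against deep layer nuclei 407 were higher (3.53%) and 440 lower (3.82%), 7.35% of 11523. Of 9977 genes tested in all 3 comparisons, 197 (1.97%) were higher and 133 (1.33%) lower than in each population. The potassium channel gene Kcnh8 stood at 142, 75.3, 88.0 and 110 CPM in the members and at no more than 18.4 CPM in the other populations. Within the members it was at 486 CPM in group A and at 17.5 CPM in the other groups together. Olfm3, an olfactomedin of glutamate receptor complexes, stood at 462 to 876 CPM against at most 139 CPM, and the muscarinic receptor gene Chrm2 at 85.7 to 174 CPM against at most 36.2 CPM. Sema5b and Alk, which fell in KI, were among the 197, at no more than 19.4 and 36.2 CPM in any library of the other populations. The phosphodiesterase gene Pde11a, at 15.6 to 40.9 CPM in the members, stood at 46.4 to 349 CPM elsewhere, and the channel gene Trpc5, at 31.3 to 75.3 CPM, at 97.0 to 312 CPM.

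Several receptor and channel genes differed in level from all 3 populations. Grik1 and Grik3 were higher than in each population, by log2 differences of 1.59 ± 0.15 (SE) and 2.68 ± 0.15 against Fn1 nuclei, 2.97 ± 0.20 and 3.73 ± 0.16 against CA1, and 2.12 ± 0.25 and 0.81 ± 0.19 against deep layer nuclei. Grm3 and Grid1 were likewise higher in all 3, while Gria1, Grin2a and Grik2 were lower in all 3, for example Gria1 by -1.45 ± 0.10 against CA1. Of 23 glutamate receptor genes 7, 10 and 8 were higher and 6, 8 and 5 lower than in Fn1, CA1 and deep layer nuclei, where 6.12%, 9.87% and 3.53% of all genes were higher and 6.85%, 11.3% and 3.82% lower. Among 29 potassium channel genes, 7, 7 and 6 were higher and 6, 13 and 7 lower, beside the same shares of all genes. Kcnip1, a subunit of A-type channels, was at 178 to 299 CPM against mean levels of 52.5, 12.2 and 26 CPM. Its level was 688 CPM in group A and 93.5 CPM in the other groups together. Kcnq5 was at 422 to 499 CPM against mean levels of 1049, 988 and 2221 CPM. By group, Kcnq5 lay at 54.3 to 176 CPM in A, B, D and F, at 962 CPM in C and at 1200 CPM in E. Group E was thus above the Fn1 and CA1 means. Of 19 WAVE and Arp2/3 genes 12 were lower and 0 higher than in CA1, and of 20 postsynaptic scaffold genes 12 were lower and 1 was higher, where 11.3% of all genes were lower and 9.87% higher.

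**Figure D5:**
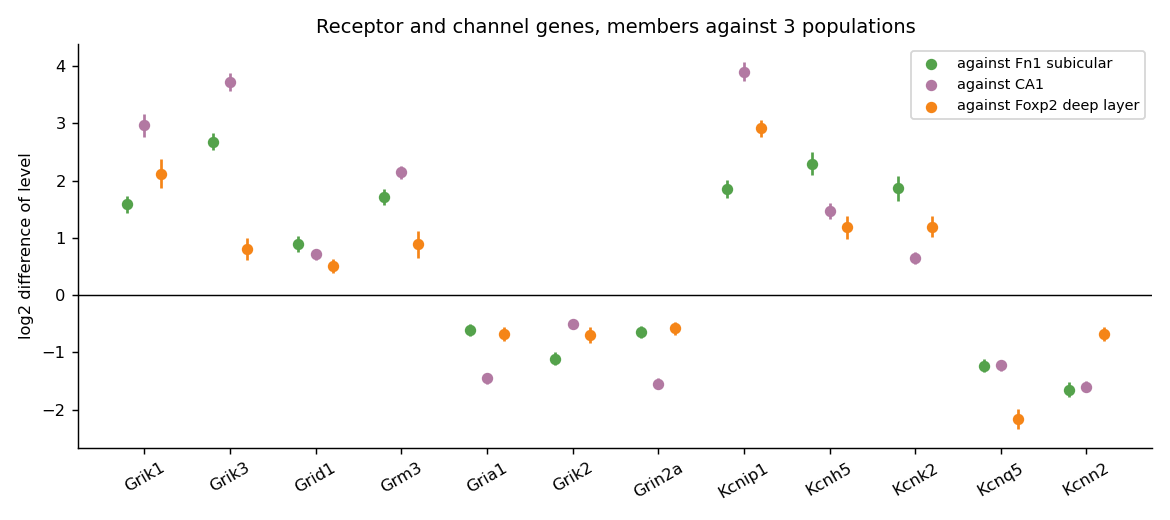
Log2 difference of level (points) with its standard error (bars) between the members and each of 3 populations for 7 glutamate receptor and 5 potassium channel genes. Grik1, Grik3, Grid1, Grm3, Kcnip1, Kcnh5 and Kcnk2 lie above 0 against all 3, and Gria1, Grik2, Grin2a, Kcnq5 and Kcnn2 lie below 0.

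The genes with the largest differences of level were the following. Against Fn1 nuclei these were Ftl1-ps1, Hmga2, Gm47902, Gm10389 and Fap (log2 3.66 to 4.16) on the high side and Skint1, Gm42707, Gm6260, Gm42705 and Flt1 on the low side, with Skint1 at 0 in the members and a mean of 24.3 CPM in Fn1 nuclei. Flt1 is a vascular gene, and it and Cldn5 stood at 11.3 to 108 CPM and 4.5 to 17.2 CPM in Fn1 nuclei against at most 2.3 and 1.3 CPM in the members. In all, 4 of 5 vascular genes were lower than in Fn1 nuclei, where 6.85% of all genes were, and their part in that comparison was not tested. Against CA1 they were Kcnh8, Gm47902, Clic5, Gm10389 and Sema5b (5.16 to 5.51) and F2rl2, 1700007F19Rik, Stac, 4933407E24Rik and Gm2115 (-4.62 to -3.41). Against deep layer nuclei they were Otx2os1, Hmga2, Gm47902, Abca12 and Kcnh8 (3.49 to 5.22) and Gm32647, Vit, 2600014E21Rik, Mybpc1 and Gm34567 (-3.55 to -2.86).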

How the data were processed

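Nuclei came from frozen hippocampi of 4 mice, 1 library per mouse. The deposited matrices were written by Cell Ranger 7.0.1 per the file headers, and the submitters' processing notes name the build mm10. The deposited values were raw counts per gene and nucleus barcode. Which annotation was used and whether intronic reads counted is not given in the sources used here. Gene positions are those of GENCODE M21 (GRCm38), which held 32158 of 32285 gene IDs. Promoters are from RefSeq.

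A barcode was kept if it had 500 or more genes and mitochondrial genes gave under 5% of its UMIs (345 of 55640 removed). Doublets were scored with Scrublet in scanpy 1.11.5, and the limit of 0.25 came from an earlier analysis that had seen the scores. Counts of the members were summed per library and tested with edgeR 4.0.16 (R 4.3.3, low-count filter, TMM factors, quasi-likelihood test, Benjamini-Hochberg adjustment, threshold 0.05). Differences of effect and levels were fitted with the library as a block. Genes of the rules were left out of counts of calls. DESeq2 1.42.0 and other settings were alternatives. Clustering used counts scaled to 10000, 2000 variable genes, 20 components, 15 neighbours and leidenalg 0.10.2 at a resolution of 0.5. With 1 library left out, the lone library of that genotype was assumed to vary like the other genotype. The fits were tested on simulated data.

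Named were up to 12 genes per direction with the largest log2 fold change among called genes whose genotypes did not overlap and whose mean reached 10 CPM, up to 5 per direction of each other comparison, the 2 genes of lowest p of each of 33 gene lists, and Cyfip2, Apod, Ptgds and Malat1. Some genes that the rule names are not reported here. Sorcs3, Mef2c, Inpp4b, Kctd16, Gm20754, Gm47875, Prkcd, Rorb, Gm2164 and the receptor, channel and group genes given by level were chosen after their values were seen. The members and lists were chosen with earlier results of these data known. Replicates differed beyond sampling noise (chi-square per degree of freedom 2.43 in WT and 2.47 in KI).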

Additional observations from a re-analysis of the deposited data

Results flagged for a closer look

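The change between WT and KI differed between the retrohippocampal nuclei and another population in 2 of 3 comparisons, by a test of the difference itself. Against Fn1 subicular nuclei 5 genes passed: Plekhg1 (log2 difference 5.18), Ptprm (3.32), Kcnc2 (1.92), Ntng1 (1.64) and Htr1f (-1.65). Without the 7 nuclei of the smallest cluster 0 of them passed, with log2 differences of 2.30, 1.38, 1.09, 0.92 and -1.63 in the same order, so that of Htr1f was about as large. Without KI replicate 1 the count was 0 as well. DESeq2 called 0 genes in the comparison with Fn1 nuclei. Plekhg1 had 2 UMIs in the WT members, so its fitted difference depends on the prior count and is no bound.

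Against CA1 nuclei 100 genes passed. On the high side the named ones were Plekhg1 (6.28), Lef1 (3.39), Ptprm (2.64), Gm12536 (2.58) and Vav3 (2.26), and without the 7 nuclei their differences were 3.40, 1.22, 0.68, 2.21 and 0.79 (adjusted p of 0.049, 0.95, 0.87, 0.11 and 0.50). On the low side they were Hpse2 (-4.23), Gm16036 (-3.23), Sdk1 (-2.94), Npsr1 (-2.83) and Pappa2 (-2.83), and all 5 passed without the 7 nuclei (adjusted p at most 0.00012). Gm16036 stood at 9.5 to 15.6 CPM in the members and at 2.8, 4.3, 28 and 21.5 CPM in CA1. Npsr1, the neuropeptide S receptor gene, stood at 148, 48.4, 29.3 and 21.1 CPM in the members and at 2.5, 9.2, 7.4 and 16.2 CPM in CA1.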

How the results depend on the processing

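For KI against WT in the members, 53 genes passed as reported, 53 with RLE factors, 72 with an equal number of nuclei and 71 in groups A and B only. Every member had at least 1111 genes, so a limit of 1000 genes removed no member. That setting is the reported fit again, also in the 961 values below. The count was 27 with DESeq2 (390 at an unadjusted p below 0.05), 34 with library totals, 261 with no low-count filter, 5 without high doublet scores, 28 with at least 4 rule genes, 0 with at least 1 UMI of Cwh43 (502 at an unadjusted p below 0.05), 23 when thinned to equal depth, 34 without the smallest cluster, 31 without group C, 86 without group D, and 139 to 366 without 1 library. Thinning brought the summed UMIs of the members to 575431 in each library and left the numbers of nuclei at 85, 189, 108 and 186. The settings that leave out or keep clusters or groups were added after the data had been seen. With the replicate number as a block the count was 319, but the labels do not pair the mice and the deviations of like-numbered libraries correlated at 0.047. The difference from Fn1 nuclei (5 genes) gave 0 with DESeq2 (44 at an unadjusted p below 0.05), 30 with no filter, 3 with at least 4 rule genes, 0 without the smallest cluster (451 at an unadjusted p below 0.05) and 0 to 48 without 1 library. That from CA1 (100) gave 25 with DESeq2 and 77 to 149 without 1 library, and that from deep layer nuclei (0) gave 15 with no filter and 1 to 28 without 1 library. Levels gave 692 with DESeq2 against Fn1 nuclei (843 to 1114 without 1 library), 428 against deep layer nuclei (522 to 934) and 2587 to 2980 against CA1 without 1 library. The log2 ratio of shares was -0.11 with at least 4 rule genes, -0.19 when thinned and -0.37 to 1.07 without 1 library. Of 961 values of 54 genes under these alternatives, 694 kept direction and side of the threshold, 261 kept direction only and 6 turned: Adarb2 to -0.52 without the smallest cluster, -0.33 without group C and -0.089 in groups A and B, Adamtsl1 to 0.30 with Cwh43, and Gm20754 to -0.0019 and Gpc5 to -1.02 in groups A and B. The causes were not tested. With 2 libraries a group and 85 members in the shallowest, the depth limits what can be called for low genes.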

Other observations

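Ttr, the transthyretin gene of the choroid plexus, stood at 487 CPM in the members of WT replicate 1, at 4.7 CPM in WT replicate 2 and at 82.3 and 162 CPM in the KI libraries, and at 384 CPM in group C against 10.7 to 50.2 CPM in the other groups. In CA1 nuclei it amounted to 0.322, 0.067, 0.365 and 0.157 UMIs per nucleus, and in the members to 3.29, 0.037, 0.676 and 1.28.

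Among the 28 pairs of rule genes, detection in the members had a negative phi in 18. Rai14 and Cwh43 were both detected in 25.7% of members (phi -0.15), Rai14 and Vwc2l in 47.0% (phi -0.25), Sntb1 and Vwc2l in 45.4% (phi 0.38), Rai14 and Sulf1 in 45.6% (phi 0.16) and Vwc2l and Sulf1 in 31.2% (phi -0.41). Since membership needs 3 of the 8 genes, these values describe the chosen nuclei only.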
